A study of Mus musculus with 24 samples.

Results

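The genes described here were 9 genes of skeletal muscle: Myog, a transcription factor of muscle differentiation, Myh3, Myl1 and Mylpf of the thick filament, Acta1, Actc1, Tnnt3 and Tnni2 of the thin filament, and Mb, which encodes the oxygen-binding protein myoglobin. They were taken by symbol from the 37310 genes of the deposited tables, and had been selected on their FPKM values in control cells, because muscle genes were lower in brown than in white fat cultures on day 4 and higher on day 8. The differences between depots and between days in control cells are therefore given as descriptions, with no test, and EGCG against control within a depot and day was tested. The control libraries of those tests were among the libraries that chose the genes. A choice for high control values favours a fall with EGCG, and a choice for low control values favours a rise. The genes were chosen as high in BAT day 8 control against WAT, and as low in BAT day 4 control.

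The study followed the effect of EGCG (epigallocatechin gallate, a catechin of green tea) on preadipocytes as they became fat cells. Stromal vascular cells, the mixed fraction left when fat is digested and the mature adipocytes are removed, were isolated from the inguinal white adipose tissue (WAT) or the interscapular brown adipose tissue (BAT) of C57BL/6 mice aged 6 weeks. At near confluence they received an induction medium with insulin, dexamethasone and isobutyl-methylxanthine until day 4, and then a differentiation medium with insulin and the thyroid hormone T3 until day 8. EGCG, with no dose in the labels, or its solvent DMSO as the control was added to the medium. The 8 groups were WAT day 4 control, WAT day 4 EGCG, WAT day 8 control, WAT day 8 EGCG and the same 4 for BAT, with 3 libraries each and 24 in all. No group carried a transgene or a deletion. The labels do not say whether replicates came from separate mice or cultures, so p-values measure the spread between these libraries, which may be technical.

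Skeletal muscle fibres form when myoblasts leave the cell cycle under factors of the MyoD family, fuse, and assemble sarcomeres from myosin thick filaments and actin thin filaments. Early fibres express embryonic and perinatal forms of these proteins, and adult fast and slow forms replace them later. Brown adipocytes and skeletal muscle share part of their embryonic origin, and brown fat also makes some proteins of oxidative muscle, myoglobin among them. Stromal preparations of fat can carry muscle precursors, and in RNA from a whole culture fewer cells of a type and less RNA per cell cannot be told apart.

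In replicates 1 and 2, 39452696 to 52893848 reads per library fell on genes. Libraries of replicate 3, deposited in a separate table, had 16392420 to 23449134, except WAT day 8 EGCG replicate 3, in which 5 genes took 61.01% of 41675648 reads. Its values are therefore low for other genes, and they are also given multiplied by 2.56, the factor that leaves those 5 genes out. Values are FPKM (reads divided by gene length and by the library's reads on genes), which allows levels to be compared between genes. All 9 genes had at least 6 reads in every library, above the floor of 3 reads that was taken as detection. That floor corresponded to an FPKM of 0.00940 to 0.239, depending on gene and library. The floor covers counting error only.

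The muscle label was checked against marker lists. Of 8 cardiac markers, Myl7, Mybpc3 and Nkx2-5 were at or under 3 reads in every group, and Myh6 in all groups except BAT day 8 EGCG. The summed cardiac list stayed between 3.92 and 35.9 FPKM, most of it from Ankrd1 (2.02 to 33.4 FPKM), a stress-responsive gene of heart and skeletal muscle, and Tnni3, the cardiac troponin I gene (0.699 to 5.20 FPKM). These were the 2 of 8 that passed the filter. Smooth muscle markers, by contrast, were abundant in all groups, with a sum over 8 genes of 88.1 to 1724 FPKM. Among the regulators of the skeletal muscle lineage, Pax7, which marks satellite cells, had at most 5 reads in any of the 24 libraries. Myf5 had at most 15 reads and Myod1 0 to 69 reads, so neither passed the filter on low values. Myf6 had 3 to 96 reads, and its values of 1.27 to 1.74 FPKM in the 6 WAT day 4 libraries lay above those of all other libraries, where the highest was 0.499 FPKM. Pax3, a factor of embryonic muscle progenitors, had 0 to 2 reads in the 6 WAT control libraries and 29 to 194 reads in the 6 BAT control libraries.

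In the mm9 annotation (build NCBIM37, GENCODE vM1) all 9 genes were protein-coding. Myog lies on chromosome 1 from 136186581 to 136189124 and Myl1 on chromosome 1 from 66970869 to 66991978. Myh3 lies on chromosome 11 from 66891802 to 66915793, in a row of myosin heavy chain genes. Mylpf is on chromosome 7 from 134355122 to 134357812, and Tnni2 and Tnnt3 follow each other on the same chromosome, at 149627713 to 149630315 and 149684741 to 149701914. Acta1 is on chromosome 8 from 126415669 to 126418651 and Actc1 on chromosome 2 from 113873018 to 113879284. Mb was annotated on the minus strand of chromosome 15 from 76845919 to 76881100, and its outermost 64 exon bases, 76881037 to 76881100, are also exon of Apol6 on the opposite strand. The other overlaps, of Acta1 with Gm20388, Actc1 with RP23-230H3.2 and Tnnt3 with Gm14492, shared 0 exon bases. Coding sequences of Acta1 and Actc1 were identical at 86.2% of 1134 bases, and those of Acta1 and the smooth muscle actin gene Acta2 at 85.4%. Whether reads of one actin gene were assigned to another was not tested. Myh3 and the perinatal heavy chain gene Myh8 were identical at 4688 bases, 80.5% of the 5823 coding bases of Myh3.

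The 250 bases before the annotated start are shown for 4 genes whose levels are followed most closely here, to place the E-box, the site bound by MyoD family factors, and the CArG box, the site bound by serum response factor. Sequences come from RefSeq on build GRCm38.p6 and are written in the direction of the gene. Capitals mark E-boxes (CANNTG) and CArG boxes. The windows were Myog at chr1:134289754-134290003 on the plus strand, Acta1 at chr8:123894776-123895025, Actc1 at chr2:114052876-114053125 and Mb at chr15:77022788-77023037, the last 3 on the minus strand. Mb had 3 RefSeq starts, and the window of the second is shown.
Myog: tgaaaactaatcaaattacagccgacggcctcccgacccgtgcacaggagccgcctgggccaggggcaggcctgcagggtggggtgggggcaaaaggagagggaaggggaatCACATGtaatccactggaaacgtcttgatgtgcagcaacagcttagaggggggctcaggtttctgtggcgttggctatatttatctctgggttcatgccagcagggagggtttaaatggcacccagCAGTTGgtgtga
Acta1: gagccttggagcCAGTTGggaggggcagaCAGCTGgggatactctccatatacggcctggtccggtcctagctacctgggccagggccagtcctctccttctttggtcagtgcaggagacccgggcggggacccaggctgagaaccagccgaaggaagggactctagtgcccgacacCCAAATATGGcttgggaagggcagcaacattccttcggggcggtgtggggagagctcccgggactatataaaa
Actc1: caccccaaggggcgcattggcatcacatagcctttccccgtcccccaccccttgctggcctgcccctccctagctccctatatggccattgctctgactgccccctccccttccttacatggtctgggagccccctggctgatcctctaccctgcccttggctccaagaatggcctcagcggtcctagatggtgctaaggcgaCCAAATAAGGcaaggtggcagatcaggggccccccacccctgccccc
Mb: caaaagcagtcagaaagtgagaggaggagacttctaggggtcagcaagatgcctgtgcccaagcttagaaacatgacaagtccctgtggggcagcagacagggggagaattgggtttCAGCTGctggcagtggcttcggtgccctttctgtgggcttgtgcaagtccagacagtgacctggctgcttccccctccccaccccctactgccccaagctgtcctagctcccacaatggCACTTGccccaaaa
Windows were found for 7 of the 9 genes, and Tnnt3 and Tnni2 had no entry in the table. An E-box stood in 6 of the 7, against 66.2% of all 32851 windows. The E-box form CAGCTG stood in 4 of the 7 (Myl1, Mylpf, Acta1 and Mb), against 13.0% of all windows. A CArG box stood in 2 of the 7, Acta1 and Actc1, against 1.47% of all windows. A gene was counted when any of its windows held the motif, whereas the share of all windows counts each window by itself. Mb was counted from 3 windows, and the first of them held 0 matches to CAGCTG. Both motifs were searched on both strands, and CAGCTG is 1 form of CANNTG. A match is a description of the letters and not a bound site.

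On day 4 all 9 genes were lower in BAT than in WAT control cells by the mean of replicates 1 and 2, with a median ratio of 0.326 and a range of 0.173 (Tnni2) to 0.675 (Myog). For 7 of the 9 genes all 3 BAT libraries lay below all 3 WAT libraries, a position that 14.2% of the 14095 tested genes held. On day 8 the order was turned: all 9 were higher in BAT, 8 of them by ratios of 1.09 (Tnnt3) to 1.78 (Myog), and Mb by a ratio of 21.4. Again 7 of 9 did not overlap, a position held by 29.9% of tested genes. These contrasts chose the genes, and nothing is read from the counts. With EGCG on day 4, all 9 genes lay lower in BAT than in WAT in all 3 libraries (14.9% of tested genes), with ratios of 0.103 to 0.256. With EGCG on day 8 the depots overlapped for all 9 as deposited, and after rescaling Tnnt3 lay below in BAT (15.0% of tested genes after the same rescaling).

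Myog, the MyoD family factor that drives myoblasts into terminal differentiation, measured 2.15, 1.86 and 2.60 FPKM in replicates 1, 2 and 3 of WAT day 4 control and 2.38, 2.16 and 2.98 FPKM in WAT day 8 control. In BAT control cells it measured 0.571, 2.13 and 0.805 FPKM on day 4 and 4.23, 3.84 and 5.40 FPKM on day 8. The WAT values thus overlapped between days, while all 3 BAT day 8 libraries lay above all 3 of day 4. BAT day 4 control replicate 2 stood apart from its group: it held 142 Myog reads, against 34 and 20 in the others.

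Myh3, the embryonic myosin heavy chain of newly formed fibres, measured 5.44, 5.38 and 5.32 FPKM in WAT day 4 control and 3.19, 2.31 and 2.40 FPKM in WAT day 8 control. In BAT control cells it went the other way, from 1.94, 3.16 and 2.00 FPKM on day 4 to 4.08, 3.49 and 4.15 FPKM on day 8. The days did not overlap in either depot. Myl1, an essential light chain of fast muscle, measured 19.5, 20.6 and 19.6 FPKM in WAT day 4 control and 14.8, 14.8 and 15.1 FPKM in WAT day 8 control. In BAT control cells it measured 3.95, 6.16 and 5.56 FPKM on day 4 and 19.6, 20.3 and 21.8 FPKM on day 8. The day 8 level in BAT thus overlapped the day 4 level in WAT. Mylpf, the regulatory light chain of fast muscle, had the highest mean of the 9 genes in WAT day 4 control (26.5 ± 0.172 FPKM, SD of replicates 1 and 2) with 11.9 ± 2.39 FPKM in WAT day 8 control, 8.63 ± 1.88 FPKM in BAT day 4 control and 15.8 ± 0.219 FPKM in BAT day 8 control.

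Acta1, the main actin of adult skeletal muscle, measured 22.8, 22.9 and 22.6 FPKM in WAT day 4 control and 15.0, 13.2 and 17.1 FPKM in WAT day 8 control. In BAT control cells it measured 5.19, 8.79 and 7.45 FPKM on day 4 and 19.9, 18.2 and 23.8 FPKM on day 8. Replicates lay close together in WAT day 4 control, and the depots did not overlap on either day. Actc1, the actin of heart and of developing skeletal muscle, measured 3.201, 3.89 and 4.68 FPKM in WAT day 4 control and 4.66, 4.31 and 5.90 FPKM in WAT day 8 control. In BAT day 4 control it measured 0.523, 3.71 and 0.970 FPKM, or 31, 246 and 24 reads, and in BAT day 8 control 5.77, 6.44 and 6.65 FPKM. Replicate 2 of BAT day 4 control was again the high library, and the overlap of the depots on day 4 rests on it. Without it the BAT values of Actc1 and Myog all lay below the WAT values.

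Tnnt3 and Tnni2, the fast-fibre forms of troponin T and troponin I, were also highest in WAT day 4 control among the 4 control groups. Tnnt3 had 15.98 ± 0.715 FPKM in WAT day 4 control (SD, n = 2), 7.82 ± 0.774 FPKM in WAT day 8 control, 3.95 ± 0.211 FPKM in BAT day 4 control and 8.52 ± 0.776 FPKM in BAT day 8 control. Tnni2 was the lowest of the sarcomere genes in BAT day 4 control, with 12, 45 and 13 reads (0.333, 1.12 and 0.864 FPKM), and measured 3.44, 2.97 and 3.54 FPKM in BAT day 8 control. Tnni2 did not overlap between the depots on either day, whereas Tnnt3 overlapped on day 8.

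Mb had a range unlike the other 8 genes. It measured 0.969, 1.01 and 1.54 FPKM in WAT day 4 control and 2.87, 2.25 and 2.95 FPKM in WAT day 8 control. In BAT control cells it measured 0.382, 0.663 and 0.323 FPKM on day 4, from 17, 33 and 6 reads, and 55.1, 54.5 and 49.8 FPKM on day 8, from 2834, 2377 and 974 reads. The ratio of day 8 to day 4 means in BAT control cells was 105, against 1.48 (Myh3) to 4.42 (Tnni2) for the other 8. All 9 genes lay above their day 4 values in all 3 BAT day 8 control libraries, a position held by 27.5% of tested genes. In WAT control cells 6 of the 9 lay below in all 3 day 8 libraries, which 29.7% of tested genes did, and Mb lay above (26.5% of tested genes). With EGCG, 8 of the 9 lay lower on day 8 than on day 4 in WAT (25.9% of tested genes, with replicate 3 rescaled) and 8 lay higher in BAT (29.8%), the exceptions being Mb and Myh3.

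**Figure D1:**
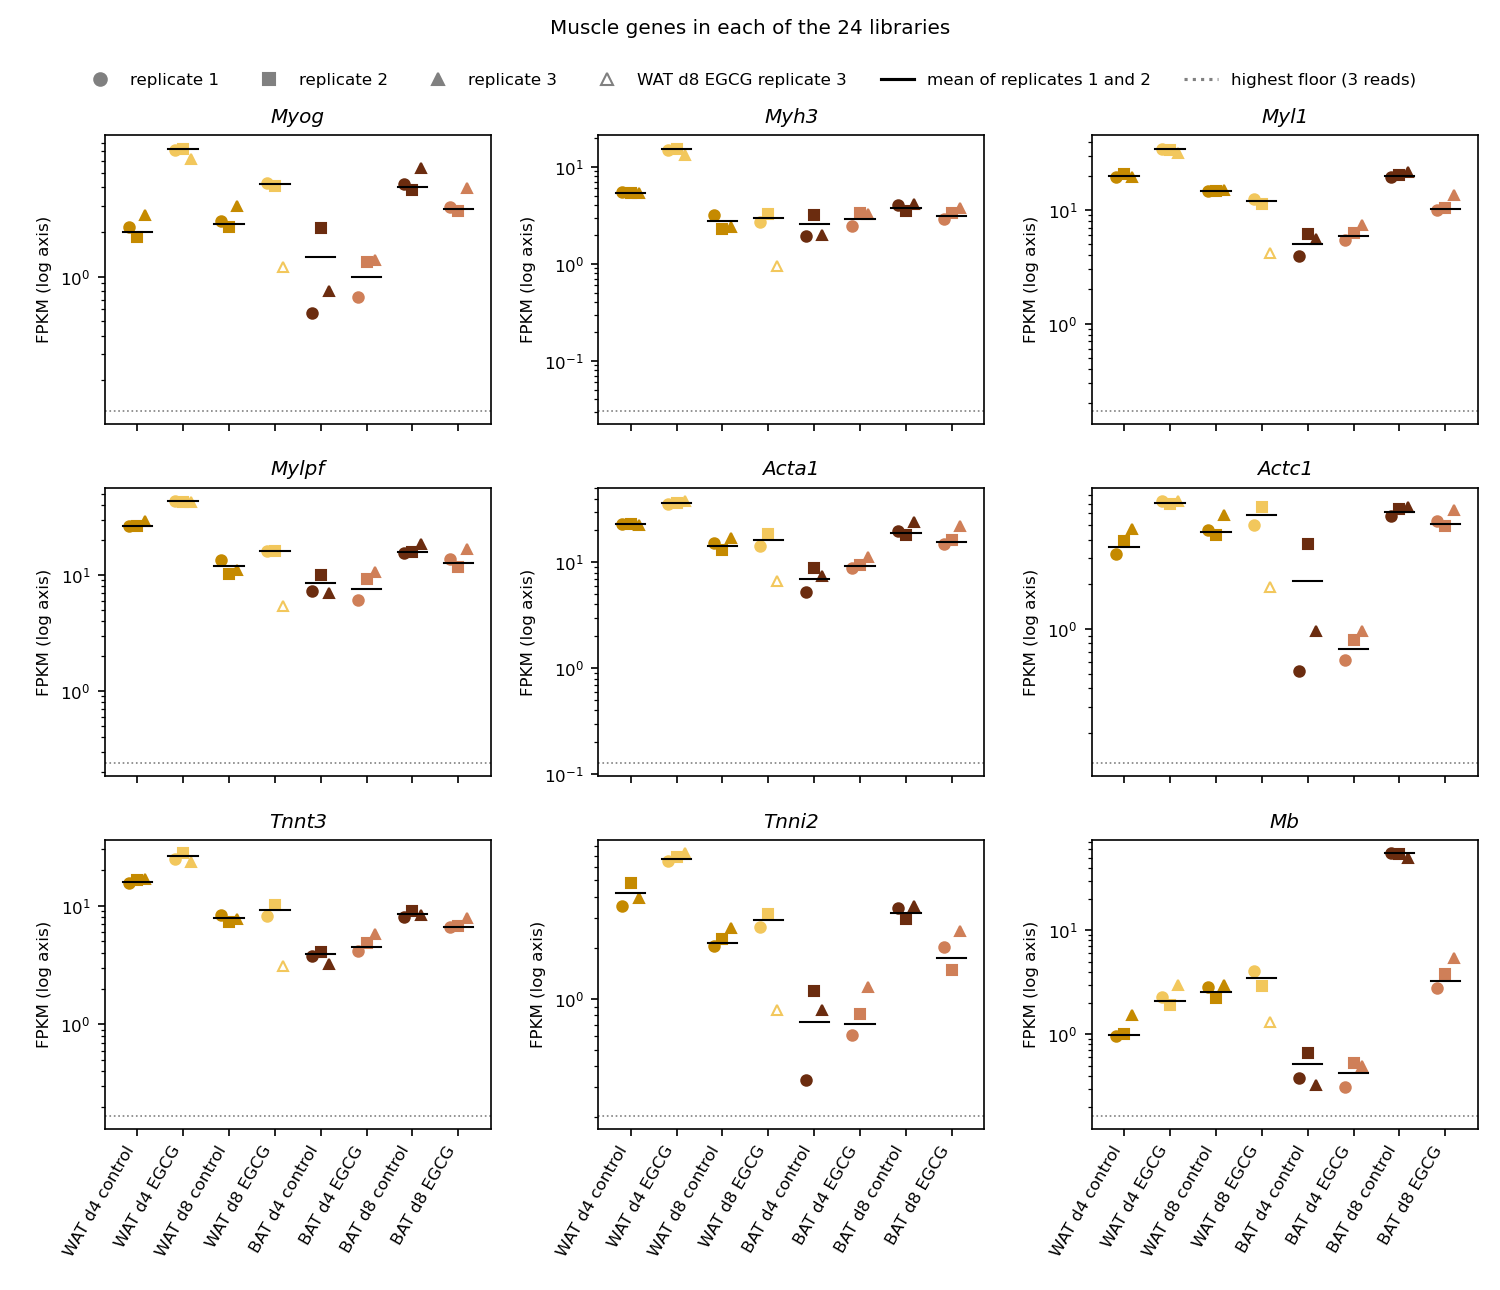
FPKM (log axis) of the 9 genes in each of the 24 libraries, with a horizontal bar at the mean of replicates 1 and 2, an open triangle for WAT day 8 EGCG replicate 3 as deposited, and a dotted line at the highest 3-read floor of the gene. In the first 8 panels the WAT day 4 EGCG group is the highest, in 7 of them both BAT day 4 groups have the lowest means (Myh3 is the exception), and in the Mb panel the BAT day 8 control libraries stand at 49.8 to 55.1 FPKM, above all others.

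The 8 genes other than Mb had their highest mean in WAT day 4 EGCG, and for all 8 its 3 libraries did not overlap the next group. The share of all tested genes in that position was not computed, so nothing is read from this count. For Mb, the order began with BAT day 8 control, whose libraries overlapped no other group, and the next groups in order (WAT day 8 EGCG, BAT day 8 EGCG, WAT day 8 control and WAT day 4 EGCG, with means of 3.49, 3.29, 2.56 and 2.10 FPKM) each overlapped their neighbour. At the lower end, BAT day 4 control and BAT day 4 EGCG overlapped for Mb, Myog, Myh3, Myl1, Mylpf, Actc1 and Tnni2. For Acta1 and Tnnt3 all 3 EGCG libraries lay above all 3 of control, a position held by 30.4% of tested genes. Across the 16 libraries of replicates 1 and 2, the 28 pairs of genes without Mb had a median Pearson r of 0.854 (0.468 to 0.974) on log2(FPKM + 0.1), and the 8 pairs with Mb a median r of 0.442 (0.076 to 0.649). The points share their groups and tables, so these values are descriptions.

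EGCG was compared with control in each depot and on each day by limma on log2(FPKM + 1) with replicates 1 and 2, with p-values adjusted over all 14095 tested genes by the Benjamini-Hochberg method. All 9 genes passed the filter. Log2 changes understate the change of genes at low FPKM. The median log2 change over all tested genes was 0.09 on day 4 and 0.17 on day 8 for WAT, and 0.03 and 0.17 for BAT, and it moved to between −0.02 and 0.02 when libraries were scaled by the median ratio. The share of calls that were higher then moved from 57.6% to 70.3% down to 44.7% to 51.8% over the 4 comparisons.

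In WAT on day 4, 8 of the 9 genes rose with EGCG, where 34.4% of all tested genes rose and 19.3% fell. Myog went from 2.15, 1.86 and 2.60 FPKM to 7.17, 7.31 and 6.26 FPKM, with no overlap, a log2 change of 1.46 ± 0.236 (SE, n = 2 against 2, adjusted p = 0.000295). Myh3 went to 14.9, 15.4 and 13.2 FPKM, again far above its control values, with a change of 1.33 ± 0.164 (adjusted p = 3.75e-05). These were the 2 highest changes among the 9 genes. Myl1 rose to 34.8, 34.1 and 31.8 FPKM and Mylpf to 43.6, 42.8 and 42.4 FPKM, by 0.75 ± 0.130 and 0.68 ± 0.169 on the log2 scale (adjusted p = 0.000465 and 0.00503). Acta1 rose to 35.6, 36.2 and 38.02 FPKM, by 0.63 ± 0.170 (adjusted p = 0.00844). Tnnt3 rose by 0.68 ± 0.105 (adjusted p = 0.000195), to a mean of 26.3 FPKM. Mb, still a low gene in these cells, rose from 0.990 ± 0.0304 to 2.10 ± 0.251 FPKM, by 0.64 ± 0.156 (adjusted p = 0.00489).

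Tnni2 and Actc1 stood near the threshold in WAT on day 4. Tnni2 had a change of 0.58 ± 0.192 (adjusted p = 0.0244), and that call was lost without WAT day 4 control replicate 1 (0.40, adjusted p = 0.185), without EGCG replicate 1 (0.62, adjusted p = 0.0657) and without EGCG replicate 2 (0.54, adjusted p = 0.0984). Actc1 went from 3.201, 3.89 and 4.68 FPKM to 7.23, 6.92 and 7.30 FPKM, with no overlap, and its change of 0.83 ± 0.360 did not pass (adjusted p = 0.0713). In the test of recovered reads by limma voom it did (1.01 ± 0.311, adjusted p = 0.0123). In replicate 3, which was not used in the test, all 9 genes were higher with EGCG, by ratios of 1.38 (Tnnt3) to 2.49 (Myh3). All 9 lay above in all 3 libraries, a position held by 33.6% of tested genes.

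Marker lists moved in the same WAT day 4 libraries, and their part in the rise was not tested. The 8 adipocyte markers all fell with EGCG, from a sum of 2120 to 2788 FPKM to a sum of 403 to 442 FPKM. Of the 8 macrophage markers 6 of 7 tested rose (69.3 to 74.2 against 172 to 188 FPKM), of the 8 endothelial markers 6 of 7 tested rose (17.7 to 19.7 against 37.2 to 41.1 FPKM), and of the 8 nerve and Schwann cell markers 3 of 6 tested rose (14.7 to 18.6 against 26.4 to 32.4 FPKM). Smooth muscle markers went the other way: 6 of 7 tested fell, and the sum went from 175 to 200 FPKM to 88.1 to 101 FPKM. Acta2 among them had 80.4 to 97.4 FPKM in control cells and 37.4 to 41.4 FPKM with EGCG. How many of its reads were counted for Acta1 was not tested here either. Fibroblast and preadipocyte markers split, with 2 of 7 tested higher and 2 lower (3635 to 3999 against 2587 to 2770 FPKM). Both tested cardiac markers rose, Ankrd1 by 0.90 ± 0.125 (adjusted p = 9.75e-05) and Tnni3 by 0.70 ± 0.190 (adjusted p = 0.00844). No red blood cell marker passed the filter.

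In WAT on day 8, Myog and Mylpf were called higher with EGCG (2 of 9 genes, against 44.7% of all tested genes), and 0 of 9 were called lower (18.9%). Myog had 2.38, 2.16 and 2.98 FPKM in control cells and 4.303, 4.07 and 1.17 FPKM with EGCG, where the last value is 3.00 after rescaling of that library. Its change was 0.67 ± 0.236 (adjusted p = 0.0269), and that of Mylpf 0.42 ± 0.169 (adjusted p = 0.0464). After rescaling, the EGCG libraries of both genes lay above those of control, a position that 41.5% of tested genes held after the same rescaling. Neither call was stable. With median-ratio scaling the adjusted p of Myog was 0.0746 and that of Mylpf 0.254. The call of Myog was also lost without any 1 of the 4 libraries (adjusted p = 0.0574 to 0.0990), and that of Mylpf without EGCG replicate 1, EGCG replicate 2 or control replicate 2 (adjusted p = 0.130, 0.116 and 0.321).

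Myl1 was the only one of the 9 with a lower mean in WAT day 8 EGCG: it had 14.8, 14.8 and 15.1 FPKM in control cells and 12.6, 11.2 and, rescaled, 10.6 FPKM with EGCG, without overlap (17.7% of tested genes after rescaling). Its change of −0.29 ± 0.130 did not pass (adjusted p = 0.0664), and with median-ratio scaling it did (−0.48, adjusted p = 0.00668). Changes of the other 6 genes were 0.08 (Myh3) to 0.33 (Mb), with adjusted p of 0.0881 to 0.682. Without EGCG replicate 1 Tnnt3 was called higher (0.34, adjusted p = 0.0241), and without EGCG replicate 2 Mb was (0.52, adjusted p = 0.0225). In the same libraries the summed adipocyte markers were 4441 to 5087 FPKM in control cells and 58.4 to 164 FPKM with EGCG, and 8 of 8 fell. The EGCG range includes replicate 3 as deposited, without rescaling, and its median was 150 FPKM. Macrophage markers fell in 7 of 7 tested genes, endothelial markers rose in 4 of 7 and fell in 1, nerve and Schwann cell markers rose in 4 of 6 and fell in 2, and smooth muscle markers split, with 2 of 7 higher and 4 lower. Fibroblast and preadipocyte markers fell in 5 of 7 and rose in 1, and Ankrd1 of the cardiac list rose (1.75, adjusted p = 2.54e-07). Their part was not tested.

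In BAT on day 4 none of the 9 genes was called by limma (0 at an adjusted p under 0.05, 1 at an unadjusted p under 0.05, and 0 by voom on recovered reads), where 27.9% of tested genes rose and 20.6% fell. Actc1 had 0.523, 3.71 and 0.970 FPKM in control cells and 0.619, 0.840 and 0.973 FPKM with EGCG, and a change of −0.64 ± 0.360 (adjusted p = 0.170). Acta1 had 5.19, 8.79 and 7.45 FPKM in control cells and 8.90, 9.49 and 11.2 FPKM with EGCG, without overlap (30.4% of tested genes), and a change of 0.39 ± 0.170 (adjusted p = 0.0809). Changes depended on single control libraries. Without control replicate 1, the changes of Myog and Actc1 were −0.67 and −1.45. For these 2 genes replicate 3 of control lay near replicate 1, and replicate 2, which that fit kept, was the high library. Without control replicate 2, the changes of Acta1 and Myl1 were 0.72 and 0.48. For Acta1 and Myl1 replicate 1 was the lowest and replicate 3 lay nearer to replicate 2. A direction is therefore not given for Myog, Actc1, Acta1 or Myl1. In replicate 3 all 9 were higher with EGCG, Actc1 by a ratio of 1.003 and the others by 1.34 to 1.79.

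Smooth muscle markers rose in the same BAT day 4 libraries, in 7 of 7 tested genes, from a sum of 106 to 143 FPKM to a sum of 721 to 896 FPKM. Acta2 had 47.5, 61.1 and 64.2 FPKM in control cells and 447, 357 and 357 FPKM with EGCG, and how many of its reads were counted for Acta1 was not tested. Adipocyte markers fell in 8 of 8 (5166 to 6713 against 1235 to 1279 FPKM), and macrophage markers rose in 4 of 7 tested and endothelial markers in 6 of 7. Nerve and Schwann cell markers rose in 4 of 6 and fell in 1, fibroblast and preadipocyte markers rose in 2 of 7 and fell in 3, and Ankrd1 rose (1.61, adjusted p = 8.62e-07). Their part was not tested.

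In BAT on day 8, Mb, Myl1, Tnni2 and Tnnt3 fell with EGCG (4 of 9 genes, against 26.1% of all tested genes), and 0 of 9 rose (46.5%). The 9 genes had been chosen as high in these control libraries, which favours a fall, and the other tested genes had not. Mb fell from 55.1, 54.5 and 49.8 FPKM to 2.78, 3.80 and 5.40 FPKM. The groups were far apart, and the log2 change was −3.71 ± 0.156 (adjusted p = 1.3e-09). The ratio of means was 0.0600 in replicates 1 and 2 and 0.108 in replicate 3. With EGCG the Mb level was still above that of BAT day 4 EGCG (0.309, 0.532 and 0.498 FPKM), with a ratio of 7.82.

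Myl1 fell from 19.6, 20.3 and 21.8 FPKM to 9.98, 10.5 and 13.6 FPKM, by 0.90 on the log2 scale (SE 0.130, adjusted p = 5.35e-05). Tnni2 went from 3.44, 2.97 and 3.54 FPKM to 2.03, 1.48 and 2.52 FPKM, a change of −0.62 ± 0.192 (adjusted p = 0.0124), and Tnnt3 from 7.97, 9.07 and 8.29 FPKM to 6.57, 6.75 and 7.89 FPKM, a change of −0.31 ± 0.105 (adjusted p = 0.0180). All 3 genes separated in all libraries, Tnnt3 by a small gap, a position held by 24.1% of tested genes. The call of Tnni2 was lost without control replicate 1 (adjusted p = 0.0733) or EGCG replicate 2 (adjusted p = 0.0990), and that of Tnnt3 without control replicate 2, EGCG replicate 1 or EGCG replicate 2 (adjusted p = 0.134, 0.0744 and 0.0506). The other 5 genes had changes of −0.21 (Actc1) to −0.38 (Myog) and were not called. Under median-ratio scaling Mylpf and Acta1 were also called lower (−0.47 and −0.46, adjusted p = 0.0235 and 0.0298).

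In the same BAT day 8 libraries adipocyte markers fell in 8 of 8 (8485 to 9014 against 320 to 339 FPKM) and brown identity markers in 5 of 7 tested, with 2 higher (217 to 247 against 36.0 to 42.3 FPKM). Ucp1 in that list, the uncoupling protein of brown fat, was at or under 3 reads with EGCG. Macrophage markers fell in 6 of 7 tested, fibroblast and preadipocyte markers fell in 4 of 7 and rose in 1, endothelial markers rose in 6 of 7 and fell in 1, and nerve and Schwann cell markers rose in 4 of 6 and fell in 2. Ankrd1 rose (2.29, adjusted p = 1.12e-08). Smooth muscle markers rose in 5 of 7 and fell in 2, to a sum of 1355 to 1724 FPKM from 418 to 571 FPKM. Acta2 had 209 to 294 FPKM in control cells and 755 to 989 FPKM with EGCG, while Acta1 was not called in either direction. The part of these markers was not tested.

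**Figure D2:**
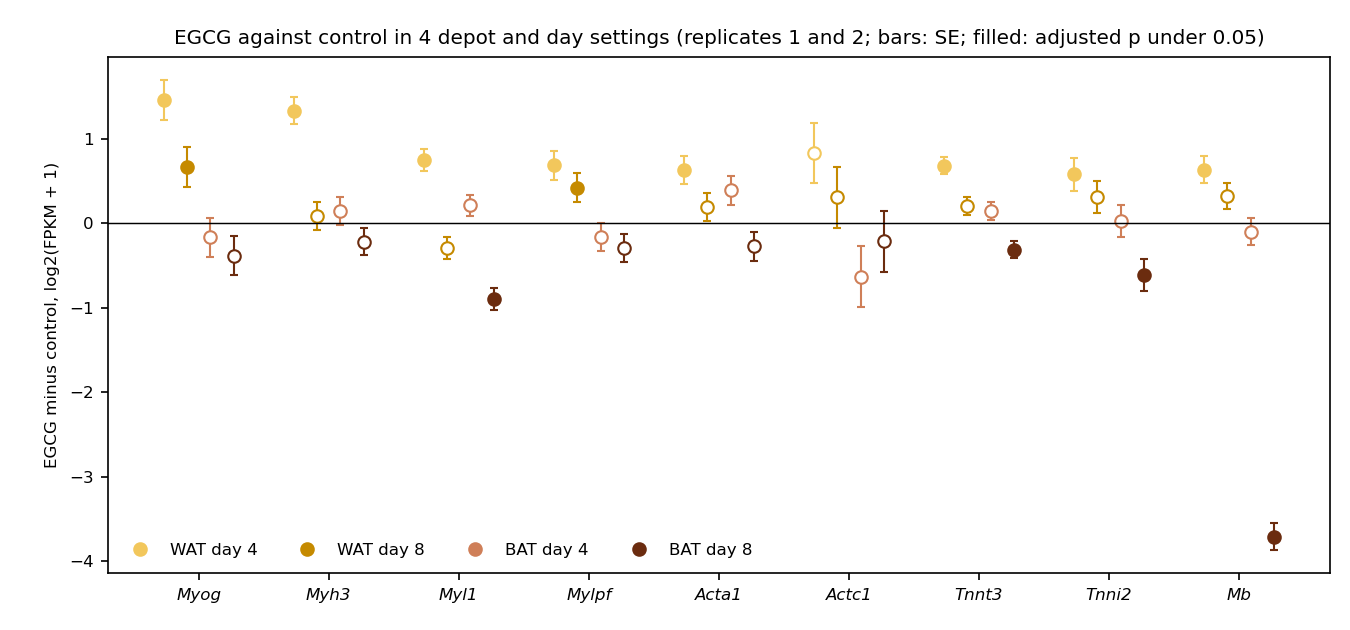
Difference between EGCG and control in log2(FPKM + 1) for the 9 genes in WAT day 4, WAT day 8, BAT day 4 and BAT day 8 (replicates 1 and 2, bars give the SE from limma, filled points an adjusted p under 0.05). Points of WAT day 4 lie between 0.58 and 1.46, those of BAT day 8 between −0.21 and −0.90 for 8 genes, and Mb stands apart at −3.71.

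Mb was set against the 7 sarcomere genes by dividing its FPKM by their summed FPKM in the same library, a quotient that library scaling does not change. The quotient was 57.4% to 72.1% in the 3 BAT day 8 control libraries. In the other 21 libraries it was 1.003% to 7.40%, with the highest values in BAT day 8 EGCG (5.01% to 7.40%) and WAT day 8 EGCG (4.18% to 6.66%). On day 4 it was at most 1.82% in any library. The summed sarcomere genes themselves were 76.4 to 86.8 FPKM in BAT day 8 control, below the 163 to 170 FPKM of WAT day 4 EGCG, where Mb was 1.92 to 2.97 FPKM.

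**Figure D3:**
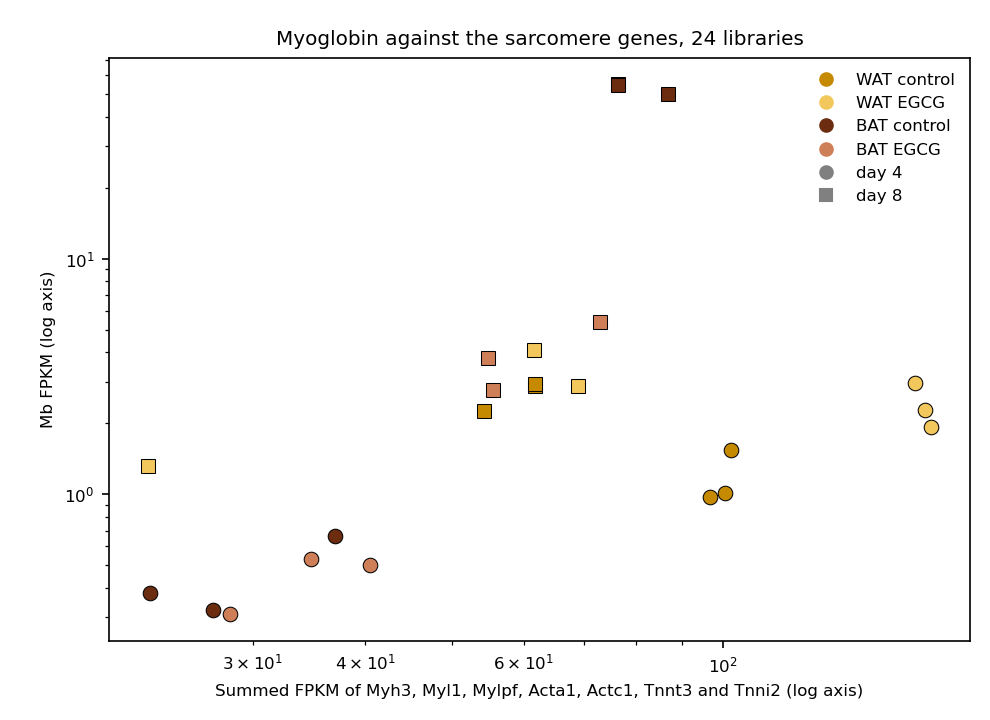
Mb FPKM against the summed FPKM of 7 sarcomere genes in each of the 24 libraries (both axes log, circles day 4, squares day 8, colours depot and treatment). The 3 BAT day 8 control libraries, 2 of them nearly on top of each other, lie above all others at a sarcomere sum that other groups also reach.

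The reads of Apol6, an apolipoprotein L gene that shares 64 exon bases with Mb on the other strand, were compared because strand was not stated for the counting. Apol6 had 4069, 3188 and 1184 reads in WAT day 8 control, where Mb had 158, 100 and 54. In BAT day 8 control Apol6 had 5985, 5230 and 2070 reads and Mb 2834, 2377 and 974. Mean levels in BAT and WAT day 8 control were 56.4 and 34.8 FPKM for Apol6 and 54.8 and 2.56 FPKM for Mb. With EGCG on day 8 in BAT, Apol6 was 2.92 ± 0.0853 FPKM, against 56.4 ± 1.19 FPKM in control cells, and the values of both genes were lower. In WAT, Apol6 had a mean of 0.334 FPKM with EGCG against 2.93 in control cells on day 4, and 2.11 against 34.8 on day 8. Means of Mb were 2.10 against 0.990 FPKM on day 4 and 3.49 against 2.56 FPKM on day 8. Totals of a gene do not show where reads on the shared bases were counted. How many reads of one were counted for the other was not tested.

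The shares of related forms were computed after values had been seen and are descriptions. Among 6 sarcomeric myosin heavy chain genes (embryonic Myh3, perinatal Myh8, fast Myh1, Myh2 and Myh4, slow Myh7), Myh3 took 33.3% to 36.0% of the summed FPKM in WAT day 4 control and 50.4% to 52.8% in WAT day 4 EGCG, while the share of adult fast Myh1 was 29.6% to 33.3% and 16.2% to 17.9%. In BAT day 4 control Myh3 took 50.9% to 57.9%, at a lower sum (3.52 to 5.46 against 14.8 to 16.2 FPKM in WAT). On day 8 Myh3 took 22.5% to 30.2% in WAT control and 26.6% to 28.2% in BAT control, where Myh1 took 40.8% to 45.0%. With EGCG on day 8 the Myh3 share was 30.6% to 31.6% in WAT and 32.5% to 35.6% in BAT. The adult fast Myh2 and slow Myh7 stayed at or under 3.73% in every library.

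**Figure D4:**
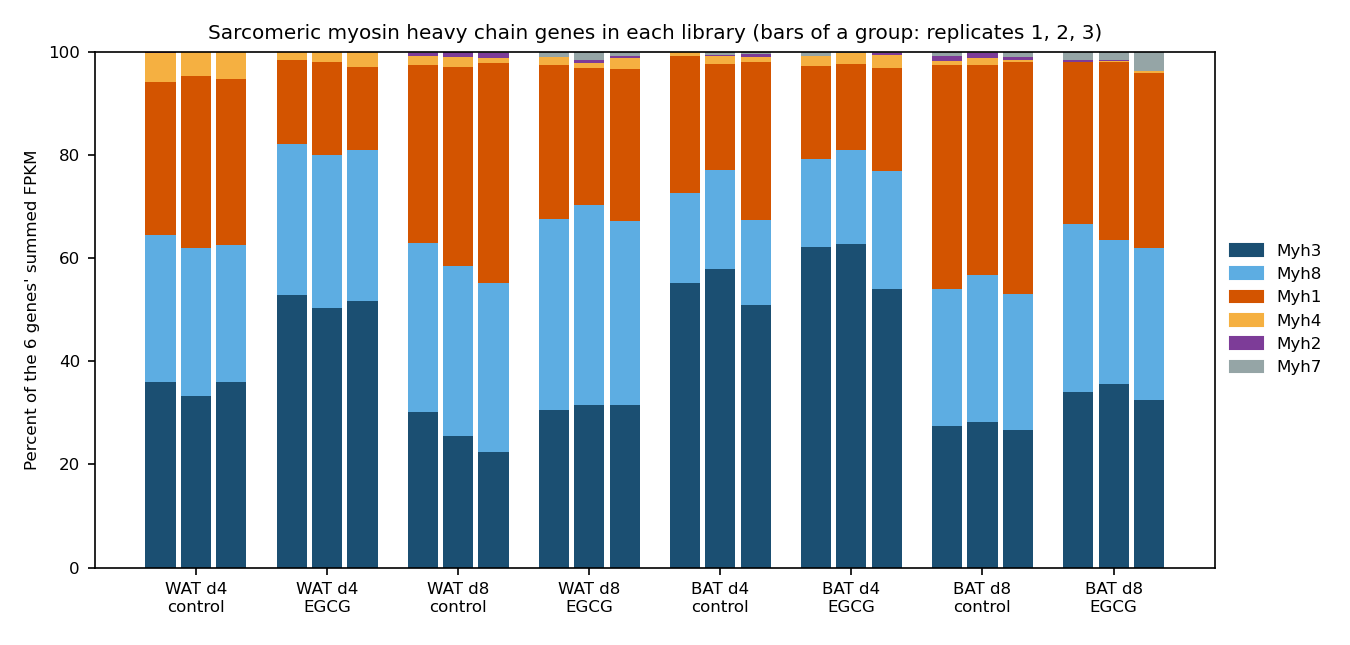
Share of each of 6 sarcomeric myosin heavy chain genes in their summed FPKM (percent), 1 bar a library in the order of replicates 1, 2 and 3. Myh3 takes over 50% in WAT day 4 EGCG and in both BAT day 4 groups and 22.5% to 36.0% in the other 5 groups.

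Among the actins, Actc1 took 12.3% to 17.2% of the sum of Acta1 and Actc1 in WAT day 4 control and 23.6% to 25.7% in WAT day 8 control. In BAT control cells it took 9.15%, 11.5% and 29.7% on day 4, ordered by size and with replicate 2 at the top, and 21.8% to 26.1% on day 8. The slow troponin T gene Tnnt1 took 4.59% to 5.50% of the sum of Tnnt1 and Tnnt3 in WAT day 4 control, 10.7% to 14.2% in WAT day 4 EGCG and 31.5% to 42.2% in BAT day 8 control. The slow troponin I gene Tnni1 was the larger part in all 24 libraries, at 50.2% to 81.1% of the sum of Tnni1 and Tnni2. The share of the fast form was thus high for troponin T and lower for troponin I in the same libraries.

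A list of 101 other skeletal muscle genes, which had been written with earlier results of these data known, was followed in the same tests, and 61 passed the filter. In WAT on day 4, 39 of the 61 rose with EGCG and 5 fell (63.9% and 8.2%, against 34.4% and 19.3% of all tested genes), with a median change of 0.46 against 0.09 over all tested genes. The genes that rose included all 5 tested genes of the muscle membrane and 9 of 13 of calcium release and the neuromuscular junction. They also included 5 of 7 of the thick filament and 6 of 9 of the thin filament. No tested gene of these roles fell. The other roles were mixed. Of the Z disc genes 4 of 8 rose and 1 fell, and of the myogenic regulators 4 of 7 rose and 1 fell. Satellite cell and fusion genes rose in 4 of 6 and fell in 1, and muscle energy metabolism genes rose in 2 of 6 and fell in 2. The strongest rises were those of Tnnt1 (1.35, adjusted p = 0.000124), Tnni1 (1.21, adjusted p = 5.88e-05) and the myosin-binding Mybph (1.13, adjusted p = 0.000335). The strongest falls were those of Cox8b, a cytochrome oxidase subunit of muscle and brown fat (−1.30, adjusted p = 0.000498), and Cdon, a surface receptor of myoblasts (−0.87, adjusted p = 3.63e-05). Myh1 had 4.94 ± 0.643 FPKM in control cells and 5.03 ± 0.605 FPKM with EGCG (0.02, adjusted p = 0.897).

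Among day 8 WAT cells, 19 of the 61 were higher with EGCG and 10 lower (31.1% and 16.4%, against 44.7% and 18.9% of all tested genes), and with median-ratio scaling 12 were higher and 13 lower, so the list had no stable direction. Tpm1, Tnnt1 and Tpm3 had the highest changes (0.95, 0.90 and 0.87, adjusted p = 5.26e-05, 0.00151 and 4.3e-08). Tpm1 and Tpm3 encode tropomyosins that many cell types express. Cox8b and Cox6a2, the muscle form of another cytochrome oxidase subunit, were among the lowest (−2.38 and −0.87, adjusted p = 2.71e-06 and 0.00132). In BAT on day 4, 15 rose and 6 fell (24.6% and 9.84%, against 27.9% and 20.6% of all tested genes), led by Tpm2, Tpm1 and the junctophilin Jph2 (2.31, 1.48 and 1.28, adjusted p = 1.86e-07, 2.49e-06 and 6.23e-07), and 0 of 7 thick filament genes were called. Tropomyosins Tpm1 and Tpm2 are also genes of smooth muscle, whose markers rose in those libraries. The part of smooth muscle in the rise of Tpm1 and Tpm2 was not tested. Cox8b and Srl, the sarcalumenin gene, were among the lowest there (−0.90 and −0.57, adjusted p = 0.00606 and 0.000935).

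In BAT on day 8, 14 of the 61 rose with EGCG and 23 fell (23.0% and 37.7%, against 46.5% and 26.1% of all tested genes), with a median change of −0.19 against 0.17 over all tested genes. Median-ratio scaling gave 11 and 29. The genes that fell included 5 of 7 of the thick filament, 5 of 8 of the Z disc and 4 of 6 of muscle energy metabolism. No tested gene of these roles rose. Of the thin filament genes 0 of 9 fell and 3 rose. Myogenic regulators fell in 1 of 7 and rose in 3, and satellite cell and fusion genes fell in 2 of 6 and rose in 3. Genes of calcium release and the neuromuscular junction fell in 4 of 13 and rose in 3. Those of the muscle membrane fell in 2 of 5 and rose in 2. Cox8b went from 84.8, 76.2 and 76.9 FPKM to 1.65, 2.04 and 3.201 FPKM, a change of −4.84 ± 0.227 (adjusted p = 3.22e-09) that exceeded that of Mb. Cox6a2 and the muscle enolase gene Eno3 fell by 1.33 and 1.13 on the log2 scale (adjusted p = 3.48e-05 and 2.11e-06). Desmin (Des) and Actn3 of the Z disc fell by 0.86 and 0.96 (adjusted p = 3.11e-05 and 4.24e-06), and Myh1 by 0.77 (adjusted p = 0.000105). Tpm1, Tpm2 and Megf10, a receptor of satellite cells, rose (1.82, 1.52 and 1.41, adjusted p = 1.22e-07, 1.65e-06 and 5.79e-07).

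Between depots in control cells the other muscle genes are described with no test, because the pattern of muscle genes in this contrast prompted the choice of the 9. On day 4, 51 of the 61 had a lower mean log2 value in BAT and 10 a higher one, with a median difference of −0.62 against 0.15 over all tested genes. Atp2a1, the calcium pump of fast fibres, measured 1.88 ± 0.200 FPKM in BAT against 12.2 ± 0.290 in WAT, a log2 difference of −2.20, and Myh8 and Myh1 differed by −1.59 and −1.55. Pax3 and Six4, factors of the progenitor stage, had higher values in BAT, by 1.11 and 0.64. On day 8, 54 of the 61 had a higher mean in BAT and 7 a lower one, with a median of 0.29 against 0.05. Cox8b, Megf10 and Tnnt1 were 3.44, 1.04 and 0.93 higher, while Unc45b, a myosin chaperone, Cdon and Tpm3 differed by −1.85, −0.87 and −0.32. Marker sums differed between the same libraries. On day 4 they were 175 to 200 FPKM in WAT and 106 to 143 in BAT for smooth muscle, 17.7 to 19.7 and 11.5 to 14.1 for endothelium, 69.3 to 74.2 and 157 to 177 for macrophages, and 2120 to 2788 and 5166 to 6713 for adipocytes. On day 8 fibroblast and preadipocyte markers summed to 4993 to 5625 FPKM in WAT and 1792 to 2225 in BAT, and endothelial markers to 24.6 to 26.9 and 17.9 to 18.4. Their part was not tested.

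**Figure D5:**
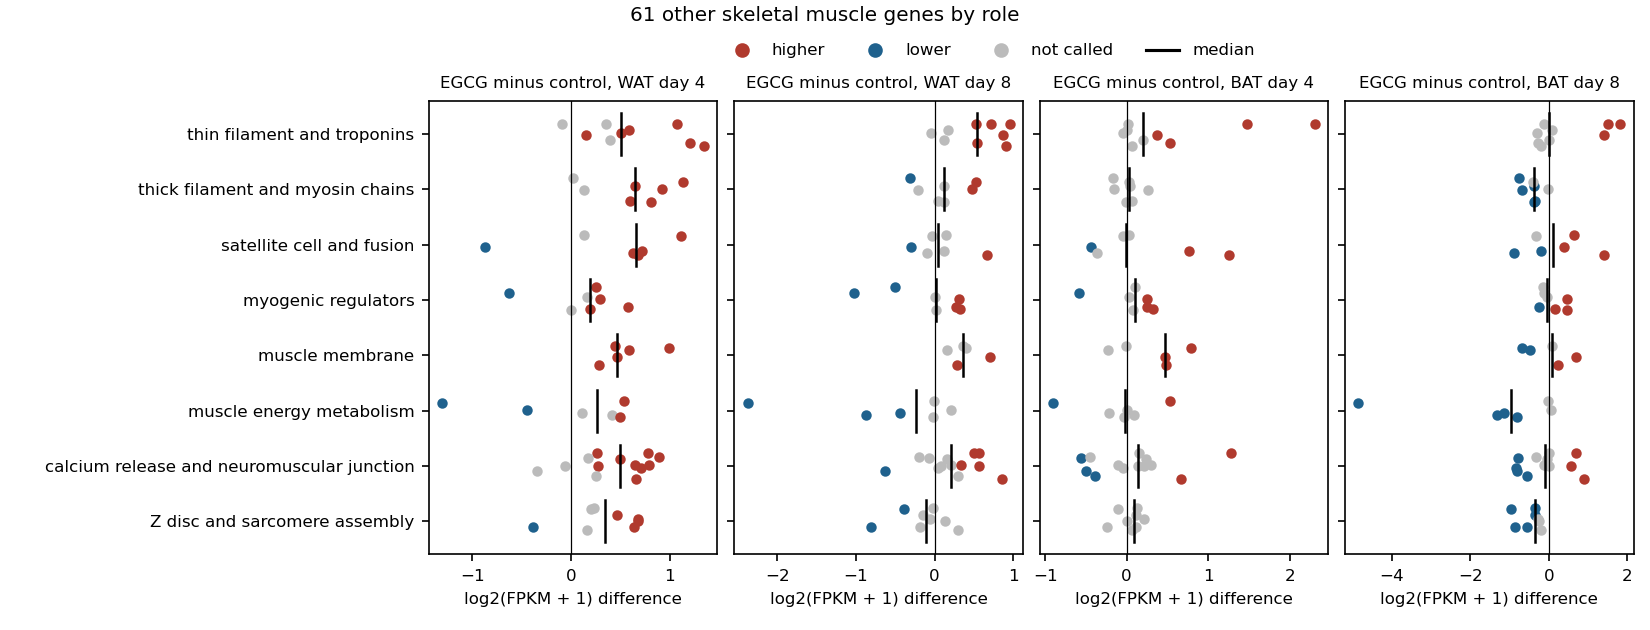
Difference between EGCG and control in log2(FPKM + 1) for 61 other skeletal muscle genes by role, in WAT and BAT on both days (points are genes, red higher and blue lower at an adjusted p under 0.05, black bars the median of the role, and the horizontal axes differ in range). In WAT day 4, 39 points are red and 5 blue, and in BAT day 8, 14 are red and 23 blue.

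The 2 genes with the highest level in each role reached from the regulators Mef2a (5.29 to 19.1 FPKM over the 24 libraries) and Mef2d (9.43 to 28.6 FPKM) to the tropomyosins Tpm1 (41.5 to 285 FPKM) and Tpm3 (60.1 to 187 FPKM). Itga7 (11.95 to 45.8 FPKM), Cdon, Hspb7, Dysf, Chrnb1, Pfkm, Myl4, Myh8, Des and Actn3 lay between 0.482 and 45.8 FPKM. The lowest values of Mef2a, Mef2d and Itga7 were those of WAT day 8 EGCG replicate 3 as deposited. Their next lowest values were 9.41, 14.7 and 17.3 FPKM. Tnnc2, the fast troponin C gene, had 0 to 2 reads in the 16 libraries of replicates 1 and 2 and 7 to 118 reads in the 8 of replicate 3. It shares 592 of 800 exon bases with Ube2c on the other strand. It was 1 gene of 10 that stayed under 3 reads in each of the 16 libraries and had at least 3 reads in all 8 of replicate 3, and it is given no further value here.

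The genes most like the mean pattern of the 9 over the 16 libraries of replicates 1 and 2 were Myh8 (r = 0.977), the calsequestrin Casq2 (0.968), the M-band gene Myom2 (0.963), Mybpc1 (0.955), Mybph (0.950), Tmem8c (0.944), Hrc (0.943), Pdlim3 (0.939), Chrng (0.938) and Tnni1 (0.938). In the 8 libraries of replicate 3 their r was 0.877 to 0.989. Of these 10 genes, 9 were on the list of other muscle genes and Hrc, a calcium-binding gene of the sarcoplasmic reticulum, was not. Tmem8c, the fusion factor myomaker, had 1.56 ± 0.0410 FPKM in WAT day 4 control, 4.55 ± 0.104 FPKM in WAT day 4 EGCG, 0.857 ± 0.653 FPKM in BAT day 4 control and 2.61 ± 0.316 FPKM in BAT day 8 control. Libraries of a group share depot, day and treatment, and the correlations are given with no p.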

How the data were processed

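RNA of 24 libraries was sequenced, and the authors deposited FPKM values in 2 separate tables: replicates 1 and 2, and replicate 3. The submitters' processing notes name FastQC 0.11.9, HISAT2 2.2.0, HTSeq 0.11 and mm9. Whether counting used strand is not given in the sources used here. Gene lengths in all 37310 rows matched the longest GENCODE vM1 transcript, and FPKM × length gave whole reads (tolerance 0.01) for at least 99.8% of values above 0 in each library.

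Genes with FPKM of at least 1 in at least 2 of the 16 libraries of replicates 1 and 2 were tested (14095). A model with a mean for each of the 8 groups was fitted to log2(FPKM + 1) in limma 3.58.1 (R 4.3.3; eBayes with trend, 8 residual degrees of freedom), two-sided, with Benjamini-Hochberg adjustment within a contrast and calls at an adjusted p under 0.05. Replicate 3, deposited in a separate table, gave values without a test. In both tables each library was scaled by its own reads. The tables differed in the reads of 10 genes, under 3 in each of 16 libraries and at least 3 in all 8 of replicate 3. Positions over 3 libraries join the 2 tables. Alternatives were a pseudocount of 0.1, no filter, median-ratio scaling, quantile normalization, voom on recovered reads, a replicate block, and leaving out each library. The fit was run on simulated data with changes planted in WAT day 4 EGCG only. That run was set to stop unless every call among the changed genes had the right sign. Many more genes were called in the real data than were changed there, so it gives no error rates for these tests. A fit without 1 library assumes that the lone library of its group varies like the other groups.

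The 9 genes, the muscle and marker lists and the tests were chosen with earlier results of these data known. Named genes were the 9, Myod1, Myf5, Myf6 and Pax7, of other listed muscle genes the 2 with the highest level in each role and in each contrast up to 3 called genes at either end of the changes, the 10 genes most correlated with the 9, and overlapping genes. Others, such as Tnnc2, were chosen after their values were seen. The values of 1 gene that this rule names are not reported here. A test of the other muscle genes between depots had been planned and is not reported, since that contrast prompted the choice of the genes.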

Additional observations from a re-analysis of the deposited data

Results flagged for a closer look

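The EGCG difference of Myl1 pointed in opposite directions on the 2 days in WAT, with every library of each day on its own side of control: the log2 difference was 0.75 on day 4 and −0.29 on day 8. The replicate 3 library of day 8 EGCG was read after rescaling. Tnnt3 had the same kind of split in BAT, with 0.15 on day 4 and −0.31 on day 8. The difference between the days was not tested for either gene. Of the 4 values, those of Myl1 on day 4 and of Tnnt3 on day 8 passed the threshold on their own.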

How the results depend on the processing

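The calls of 8 genes in WAT day 4 and 4 genes in BAT day 8 stayed within 1.5 times of those counts under the pseudocount of 0.1, no filter, median-ratio scaling, quantile normalization, voom and the replicate block. In WAT day 8 the 2 calls became 0 with the pseudocount of 0.1, 0 with no filter, 1 (Myl1, lower) with median-ratio scaling and 1 with the replicate block. Voom gave 3 (Myog and Mylpf higher, Myl1 lower) and quantile normalization 2 (Myog higher, Myl1 lower). Leaving out 1 library gave 7 to 8 called genes in WAT day 4, 0 to 1 in WAT day 8, 0 to 2 in BAT day 4 and 2 to 3 in BAT day 8. The cause of these shifts was not tested, beyond the loss of a library. Over all tested genes, voom on recovered reads called 4919 higher and 2751 lower in WAT day 4 and 6549 higher and 3689 lower in BAT day 8, against 4853 and 2714 and 6549 and 3682 by the test on FPKM. Direction turned for Myh3 in WAT day 8 with median-ratio scaling (−0.066) and for Tnni2 in BAT day 4 with quantile normalization (−0.025). Without 1 library, the log2 change of Myh3 in WAT day 8 ran from −0.087 to 0.254. In BAT day 4 it ran for Myog from −0.667 to 0.329, for Myh3 from −0.105 to 0.396, for Myl1 from −0.056 to 0.477, for Mylpf from −0.42 to 0.095, for Actc1 from −1.449 to 0.18, for Tnni2 from −0.308 to 0.359 and for Mb from −0.232 to 0.035, so directions there depend on single libraries. Replicate numbers are shared by all groups but did not pair the libraries: the correlation of replicate differences over 28 pairs of groups was −0.079 to 0.081, and the block changed no call among the 9 genes other than that of Mylpf in WAT day 8 (adjusted p = 0.0565). Depth limits Mb most, with 6 reads in the lowest library.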
